A study of Mus musculus with 4 samples.

Results

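Mucous neck cells of the mouse gastric corpus were selected from single-cell RNA libraries by their summed neck genes Agr2, Muc6 and Gkn3. They also had to stay under limits set on a few chief, parietal, pit and cell cycle genes. The selection gave 3523 of 38732 cells, or 9.10%. A barcode was taken as a cell from 500 unique molecular identifiers (UMIs, each a counted RNA molecule) and 200 genes upward, provided that mitochondrial UMIs did not exceed 50%. A member had at least 20 UMIs of Agr2, Muc6 and Gkn3 together per 10000 and at least 3 of them, under 50 per 10000 of the chief genes Chia1 and Cblif, under 50 per 10000 of the parietal genes Atp4a and Atp4b, at most 1 UMI of the pit mucin Muc5ac, and under 3 UMIs over 9 cell cycle genes. Because members were selected on these genes, the levels of the selecting genes describe the selection and test nothing.

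The cells came from 4 libraries of dissociated corpus epithelium of wild-type C57BL6/J mice aged 6 to 7 weeks. The Untreated library came from mice given PBS. The Day 1 library was made 1 day, and the Day 3 library 3 days, after a single oral dose of 350 mg/kg of L635, a compound toxic to parietal cells. The Day 3 with AREG library was the same recovery time with amphiregulin, a secreted growth factor that binds EGFR, the receptor tyrosine kinase of epidermal growth factor. The dose, route and schedule of AREG and the number of mice per library are not given in the sources at hand. Each group is 1 library, so no difference has a replicate check. Every interval below is a 95% interval that covers counting error only, and no p-value is given. Fewer transcripts of a gene per cell and a different mix of cells among the members cannot be told apart in summed counts.

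Mucous neck cells sit in the middle of the corpus gland. They secrete a gland mucin built on Muc6, and its sugar chains end in a residue added by the glycosyltransferase A4gnt. The trefoil peptide Tff2 is packed with this mucin, and Agr2 is a disulfide isomerase of the endoplasmic reticulum that helps mucins fold. In mice, neck cells have long been described as a stage before zymogen-secreting chief cells, and after parietal cell loss a related mucous lineage called spasmolytic polypeptide-expressing metaplasia (SPEM) appears at the gland base.

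The promoters of the marker genes are shown first because Muc6, Gkn3, A4gnt and Agr2 were the genes that stood furthest above other cells, or defined the selection, in these libraries. Of the 5 fixed markers, 4 had an entry in the RefSeq promoter table of build GRCm38.p6, matched by symbol, each covering 250 bases before and 50 after a gene start. The Muc6 window is chr7:141655344-141655643 on the minus strand, the Gkn3 window chr6:87388886-87389185 on the minus strand, the A4gnt window chr9:99612252-99612551 on the plus strand and the Agr2 window chr12:35992675-35992974 on the plus strand. They are written 5′ to 3′ along the gene, with capitals marking GATAA or its reverse complement TTATC, the core bound by GATA factors.
Muc6: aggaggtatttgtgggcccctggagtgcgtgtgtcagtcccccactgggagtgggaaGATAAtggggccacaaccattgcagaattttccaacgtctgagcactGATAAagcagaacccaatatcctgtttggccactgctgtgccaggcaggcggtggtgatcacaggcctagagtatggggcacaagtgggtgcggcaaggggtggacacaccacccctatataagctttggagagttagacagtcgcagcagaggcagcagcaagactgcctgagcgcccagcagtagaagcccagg
Gkn3: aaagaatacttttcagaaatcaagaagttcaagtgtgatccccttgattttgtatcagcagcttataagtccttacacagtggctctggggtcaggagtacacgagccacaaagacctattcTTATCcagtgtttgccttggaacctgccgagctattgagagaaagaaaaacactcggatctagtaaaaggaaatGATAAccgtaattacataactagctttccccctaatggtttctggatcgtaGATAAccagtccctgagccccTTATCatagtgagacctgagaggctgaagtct
A4gnt: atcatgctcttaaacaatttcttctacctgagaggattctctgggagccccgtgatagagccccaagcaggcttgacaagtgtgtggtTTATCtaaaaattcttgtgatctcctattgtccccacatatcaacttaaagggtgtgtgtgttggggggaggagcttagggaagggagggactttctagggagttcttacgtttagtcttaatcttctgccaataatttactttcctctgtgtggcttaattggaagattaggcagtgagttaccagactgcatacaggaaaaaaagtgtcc
Agr2: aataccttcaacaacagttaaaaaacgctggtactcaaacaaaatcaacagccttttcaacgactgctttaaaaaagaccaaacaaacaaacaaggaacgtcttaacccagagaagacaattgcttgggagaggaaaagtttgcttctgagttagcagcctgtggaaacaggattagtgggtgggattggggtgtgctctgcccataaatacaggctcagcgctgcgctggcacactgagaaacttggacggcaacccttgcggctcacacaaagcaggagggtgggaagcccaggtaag
GATAA, searched on both strands, occurred 4 times in the Gkn3 window, 2 times in the Muc6 window, 1 time in the A4gnt window and 0 times in the Agr2 window. Of all 32851 promoter windows in the table, 25.4% held at least 1 copy, 5.27% at least 2 and 0.204% at least 4. The forkhead core TGTTTGC occurred 1 time in the Gkn3 window and in 5.07% of all windows, and TGTTTAC, in 3.65% of all windows, was in none of these 4. The motifs were chosen after the sequences had been read, and a match is a run of letters, not a measured binding site.

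Members made up 10.9% of Untreated cells (1519 of 13897, interval 10.4 to 11.5%) and 2.19% of Day 1 cells (86 of 3926, 1.76 to 2.70%). At day 3 they were 9.64% of cells with AREG (1246 of 12923, 9.14 to 10.2%) and 8.41% without it (672 of 7986, 7.81 to 9.05%). The Day 1 share was the low one, and the other 3 lay between 8.41% and 10.9%. The log2 ratio of shares was -2.32 for Day 1 over Untreated (-2.63 to -2.01), -0.38 for Day 3 over Untreated (-0.50 to -0.25) and 0.20 for Day 3 with AREG over Day 3 (0.07 to 0.33). The last ratio turned negative when the neck sum had to reach 40 per 10000 (-0.06), when cells were thinned to 500 UMIs before selection (-0.12) and when Muc6 and Gkn3 alone had to reach the limit (-0.54). Under Muc6 and Gkn3 alone the Day 3 over Untreated ratio turned to 1.38, with 1.87% of Untreated cells, 0.790% of Day 1 cells, 3.35% of Day 3 with AREG cells and 4.86% of Day 3 cells selected.

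Members were somewhat shallower than all cells of their libraries. Their median was 2314 UMIs in Untreated (2507 over all cells), 2107 in Day 1 (2724.5), 2156.5 in Day 3 with AREG (2685) and 2556.5 in Day 3 (3013.5). Summed member counts came to 4522695 UMIs in Untreated, 309772 in Day 1, 3605661 in Day 3 with AREG and 2470761 in Day 3, so the Day 1 values rest on the fewest molecules, and 1 cell held 9.99% of them. No member barcode was shared between libraries, and at most 3 cell barcodes were shared by any pair. In Day 1, 84 of the 211 cells that met the neck sum were set aside for Muc5ac, against 642 of 2996 in Untreated. No doublet caller was applied and the doublet rate was not measured.

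**Figure D1:**
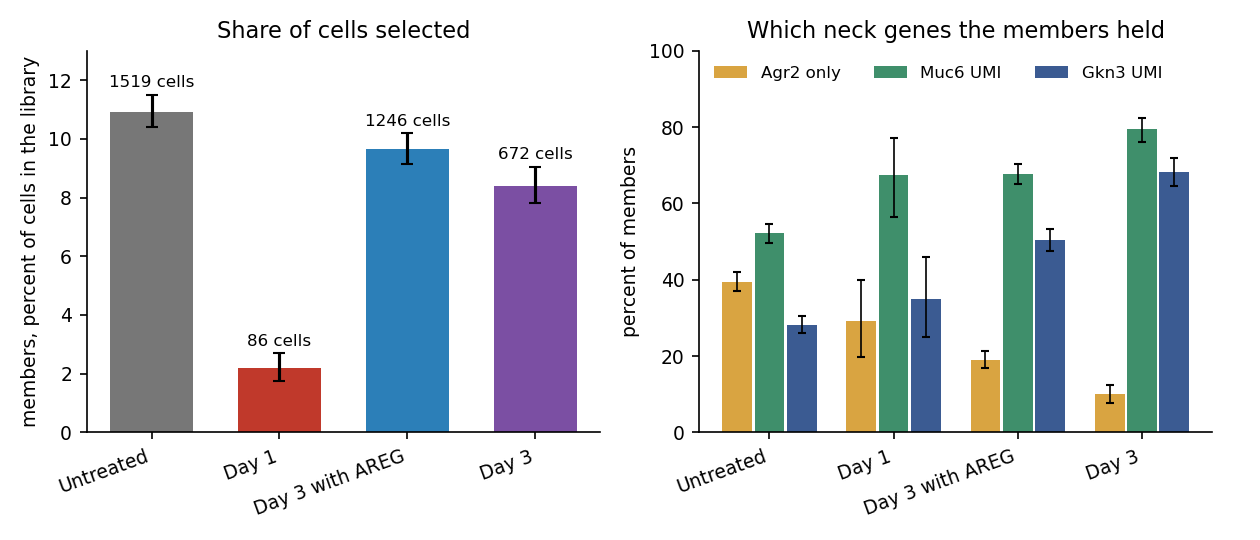
Left, share of cells selected as mucous neck cells in each library, with exact 95% binomial intervals and the number of members. Right, percent of members with Agr2 but neither Muc6 nor Gkn3, with a Muc6 UMI and with a Gkn3 UMI. The share was 2.19% at Day 1 and between 8.41% and 10.9% elsewhere, and Agr2-only members ranged between 9.97% and 39.5%.

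What the members were selected on differed between libraries. Agr2 carried the selection without Muc6 or Gkn3 in 39.5% of Untreated members (37.0 to 42.0%), 29.1% of Day 1 members (19.8 to 39.9%), 19.0% of Day 3 with AREG members (16.9 to 21.3%) and 9.97% of Day 3 members (7.81 to 12.5%). A Muc6 UMI was present in 52.2% of members in Untreated, 67.4% in Day 1, 67.8% in Day 3 with AREG and 79.5% in Day 3. A Gkn3 UMI was present in 28.2% in Untreated, 34.9% in Day 1, 50.4% in Day 3 with AREG and 68.3% in Day 3. With every cell thinned to 500 UMIs, Muc6 was detected in 21.1% of Untreated, 40.7% of Day 1, 34.8% of Day 3 with AREG and 52.2% of Day 3 members. Parietal cells, which should lack Muc6 and were thinned the same way, gave 0.738% in Untreated, 0 of 89 cells in Day 1 (which allows a share of up to 3.37%), 0.604% in Day 3 with AREG and 1.5% in Day 3. Their median depth was 1799 UMIs in Untreated, 6072 in Day 1, 4116 in Day 3 with AREG and 5333.5 in Day 3. Because Muc6 is a selecting gene, these shares describe how members entered.

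The 2 kinds of members were not alike outside the selecting genes. In Untreated, members with Muc6 or Gkn3 had 345 UMIs of A4gnt per 1000000 UMIs (CPM) and Agr2-only members 139 CPM, while Tff2 stood the other way, at 11166 CPM with Muc6 or Gkn3 and 23303 CPM with Agr2 only. The pit secretory gene Gkn1 was also lower in Untreated members with Muc6 or Gkn3, at 3719 CPM, than in Agr2-only members, at 13784 CPM. In Day 3, A4gnt was 184 CPM in members with Muc6 or Gkn3 and 51.7 CPM in Agr2-only members, and Gkn1 was 3107 CPM with Muc6 or Gkn3 and 14024 CPM with Agr2 only. The Day 1 A4gnt levels, 273 CPM with Muc6 or Gkn3 and 290 CPM with Agr2 only, did not separate the 2 kinds, with 25 Agr2-only cells. Agr2-only members held more Gkn1 and Tff2 in every library but not always less A4gnt. The mix of the 2 kinds differs in every comparison below, and its part in the results was tested only by selection on Muc6 and Gkn3 alone.

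Near the limit the label was weaker in the Untreated library. The 93 Untreated cells with a neck sum of 20 to 25 per 10000 had 24.1 CPM of A4gnt, and the 99 cells just below, at 15 to 20, had 33.5 CPM. Both are close to the 22.5 CPM of other Untreated cells. In Day 3, 45 members just inside had 59.1 CPM of A4gnt and 54 cells just outside 25 CPM. In Day 3 with AREG, 108 members just inside had 62.2 CPM and 109 cells just outside 40.7 CPM. Day 1 had 7 cells inside the band, at 126 CPM, and 10 outside it, at 191 CPM.

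The fixed neck markers that the selection did not use bore out the name for A4gnt in all 4 libraries and for Tff2 in only part of them. A4gnt was 269 CPM in Untreated members and 22.5 CPM in other Untreated cells. It was 274 CPM against 15.3 CPM in Day 1, 139 CPM against 17.1 CPM in Day 3 with AREG, and 177 CPM against 17.9 CPM in Day 3. Tff2 was 15667 CPM in Untreated members and 12655 CPM in other Untreated cells, and in Day 1 it was lower in members, at 5423 CPM, than in other cells, at 7331 CPM. Tff2 was higher in members at day 3, with 10553 CPM against 5517 CPM with AREG and 7821 CPM against 3231 CPM without. Tff2 is known from both neck and surface mucous progenitors in mice, and its level alone does not mark these members.

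Of 10 neck genes outside the selection, Tff2 and Aqp5 among them, 8 reached 20 CPM in members or other cells of each library. Counting genes at least 2-fold higher in members on the log2(CPM + 1) scale, 6 of 8 passed in Untreated, 6 of 8 in Day 1, 7 of 8 in Day 3 with AREG and 8 of 8 in Day 3, where 10.2% of all genes did in Untreated, 18.7% in Day 1, 5.86% in Day 3 with AREG and 8.55% in Day 3. They included Spdef, an ETS factor of mucus-secreting cells, at 115 CPM in Untreated members and 20.3 CPM in other cells, and Creb3l4, a bZIP factor anchored in the endoplasmic reticulum, at 253 CPM in Untreated members and 24.7 CPM in other cells. The water channel Aqp5 was 56.3 CPM in Day 3 members and 3.69 CPM in other Day 3 cells. These counts compare selected cells with the rest and are given as a description.

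Genes that the naming rule placed highest over other cells, by the median of the 4 libraries, were Muc6, Gkn3, A4gnt, Pga5, Creb3l4, Cpn1, Agr2, Spdef, Spp1, Cfi, Tstd1, Pgc, Ppic, Fosb and Erlin1. Cpn1, the catalytic subunit of carboxypeptidase N, was 339 CPM in Untreated members and 38.8 CPM in other cells, and in Day 3 it was 152 CPM in members and 19.5 CPM in other cells. Cfi, complement factor I, was 489 CPM in members and 72.1 CPM in other cells of Untreated, and 171 CPM in members and 37.1 CPM in other cells of Day 3. The cyclophilin Ppic was 212 CPM in Untreated members and 35.2 CPM in other cells. Spp1, which encodes osteopontin, reached 5233 CPM in Day 1 members against 354 CPM in other cells, but 1 cell held 41.1% of those Spp1 UMIs.

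Levels of markers of other cell types differed by type. Chief genes outside the selection summed to 239057 CPM in Untreated members (163745 CPM in other cells), 145084 in Day 1 (22849), 196743 in Day 3 with AREG (68354) and 242537 in Day 3 (77122). Pgc alone was 215189 CPM in Untreated members. Of 8 chief genes measured in Untreated, 2 were at least 2-fold higher in members than in other cells and 4 at least 2-fold lower. Over all genes these shares were 10.2% and 6.31%. The median log2 ratio of the list over other cells was -0.99 in Untreated, 2.20 in Day 1, 1.61 in Day 3 with AREG and 1.18 in Day 3. The Untreated sum thus follows Pgc and not the list. Parietal genes outside the selection summed to 156 CPM in Untreated members (367 CPM in other cells), 274 in Day 1 (190), 211 in Day 3 with AREG (779) and 217 in Day 3 (814). Most of the member sum was Slc9a4, at 105 CPM in Untreated and 190 CPM in Day 1, against 66.5 and 61.3 CPM in parietal cells. The Day 1 sum therefore does not show parietal transcripts in general. Kcne2 was 3.23 CPM in Day 1 members and 407 CPM in Day 1 parietal cells, and Esrrg 54.9 CPM in Day 1 members and 324 CPM in those parietal cells. The pit genes Gkn1, Gkn2, Tff1, Psca and 5 more summed to 29323 CPM in Untreated members, 16438 CPM in Day 1, 15672 CPM in Day 3 with AREG and 15533 CPM in Day 3, while other cells had 206144 CPM in Untreated, 153105 in Day 1, 160989 in Day 3 with AREG and 183463 in Day 3. After thinning, a Gkn1 UMI was found in 76.0% of Untreated members and 76.0% of Untreated parietal cells, so detection alone did not set them apart. The Gkn1 level did, at 7452 CPM in Untreated members and 3114 CPM in Untreated parietal cells. The median Untreated member had 28.6 Gkn1 UMIs per 10000 and the 90th percentile was 127. Relative to barcodes with under 50 UMIs, which hold mostly free RNA, Gkn1, Gkn2 and Tff1 together stood at 16.9% in Untreated members, 9.34% in Day 1, 11.3% in Day 3 with AREG and 7.61% in Day 3. Immune genes summed to between 4.99 and 7.74 CPM, with Cd3e, Lyz2, C1qa, C1qb, Fcer1g and Nkg7 at 0 in all 4 libraries, stromal genes to between 21.9 and 34.4 CPM, and squamous genes to at most 1.21 CPM. At Day 3 the hormone genes Ghrl, at 3867 CPM, and Sst, at 521 CPM, came almost wholly from single cells, which held 98.5% and 96.3% of their UMIs, and neither is read further.

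**Figure D2:**
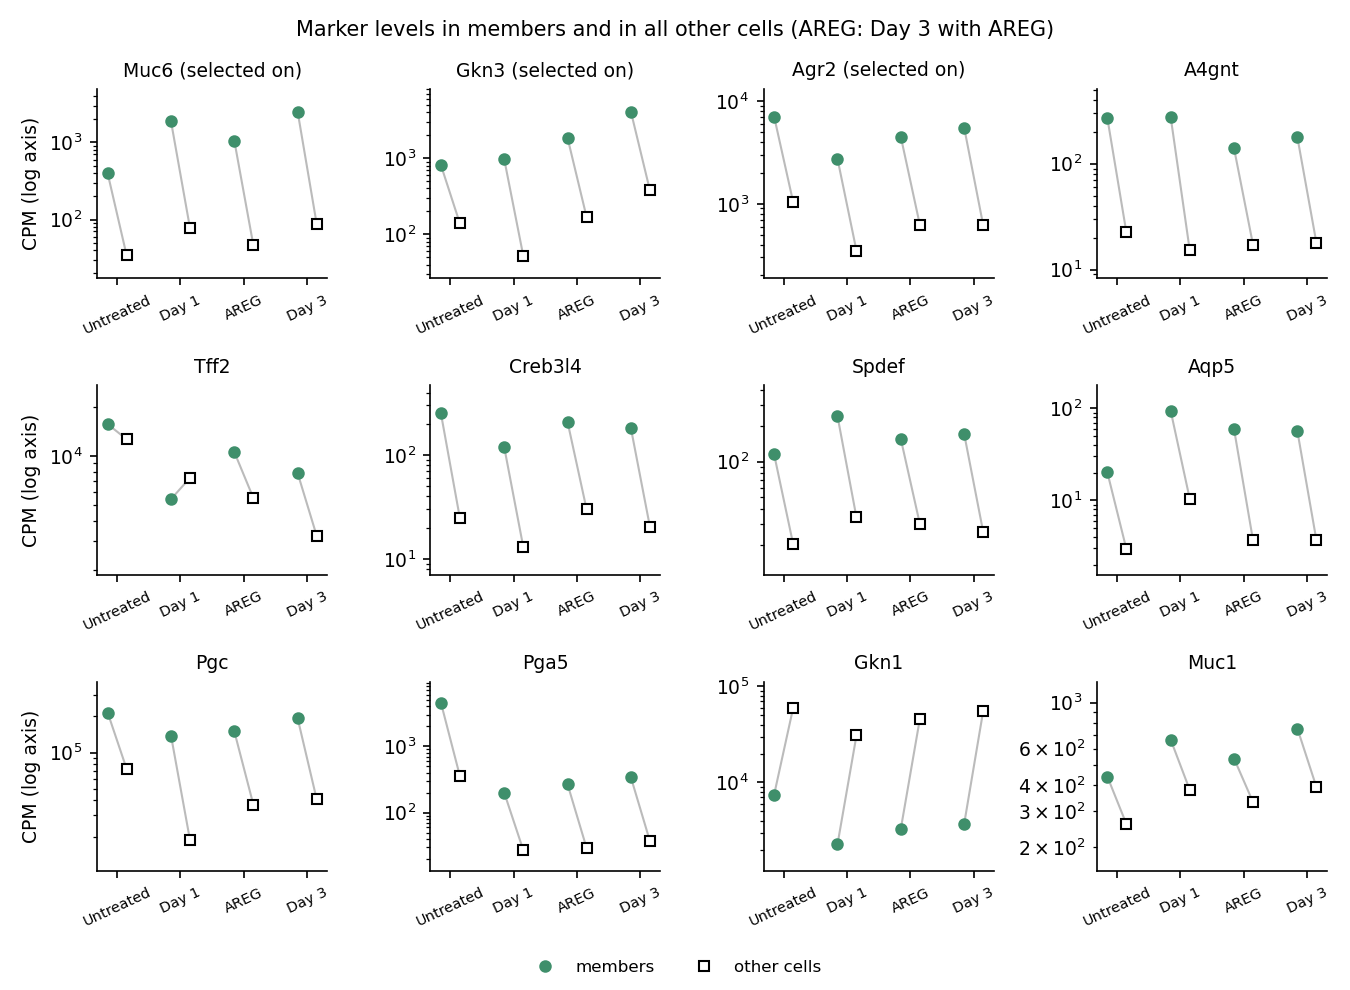
Summed levels in CPM, on log axes, of 12 marker genes in members (filled circles) and in all other cells of the same library (open squares). A4gnt, Creb3l4, Spdef, Aqp5, Pgc and Pga5 stood higher in members in all 4 libraries, Gkn1 stood lower, and Tff2 crossed over at Day 1, at 5423 CPM in members and 7331 CPM in other cells.

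Zymogen transcripts made up a large part of the members' RNA. Pgc, which encodes pepsinogen C, took 215189 CPM in Untreated members, 138531 CPM in Day 1, 149816 CPM in Day 3 with AREG and 191921 CPM in Day 3. Other cells held 73038 CPM in Untreated, 18716 in Day 1, 36911 in Day 3 with AREG and 40892 in Day 3. The median member had 2253 Pgc UMIs per 10000 in Untreated, 1176 in Day 1, 1397 in Day 3 with AREG and 1808 in Day 3, and the level was not set by a few members. Pga5, another pepsinogen, was 4554 CPM in Untreated members but 200 CPM in Day 1, 267 CPM in Day 3 with AREG and 339 CPM in Day 3. Other cells were likewise highest in Untreated, at 356 CPM against 27.4 CPM in Day 1, 29.4 in Day 3 with AREG and 37.3 in Day 3. Bhlha15, the transcription factor of mature chief cells also called Mist1, was 2.43 CPM in Untreated members, 21.9 CPM in Day 3 with AREG and 16.2 CPM in Day 3. It was detected in 0 of 86 Day 1 members, which allows a share of members with a UMI of up to 3.49%.

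The cells that met the neck sum but failed exactly 1 other limit give the members' nearest neighbours by rule. In Untreated, A4gnt was 269 CPM in members, 251 CPM in 347 cells over the chief limit, 23.7 CPM in 503 cells over the Muc5ac limit and 120 CPM in 210 cells over the cell cycle limit. Tff2 was 15667 CPM in members, 1400 CPM in cells over the chief limit, 24436 CPM in those over the Muc5ac limit and 26272 CPM in those over the cycle limit. In Day 3, Tff2 was 7821 CPM in members, 281 CPM in 93 cells over the chief limit, 16282 CPM in 171 cells over the Muc5ac limit and 7714 CPM in 56 over the cycle limit. The replication helicase gene Mcm5 was 36.3 CPM in Untreated members, 5.82 CPM in cells over the chief limit and 75.7 CPM in cells over the cycle limit. A4gnt was thus alike in Untreated members and cells over the chief limit, while Tff2 was far lower over the chief limit and higher over the Muc5ac limit in both libraries.

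Members found 1 day after L635 carried high levels of immediate early genes and low levels of several zymogen genes. Of 6020 genes tested, those that reached 20 CPM in Day 1 or Untreated members and 10 UMIs over the 2 libraries, 39.6% were at least 2-fold higher in Day 1 than in Untreated members and 5.45% at least 2-fold lower. The median log2 ratio of CPM + 1 over all these genes was 0.65. The minimum raises this all-gene shift. Of the 6020 genes, 35.0% were under 20 CPM in Untreated members and 6.61% in Day 1 members. A list with few such genes is therefore not set against 0.65 alone, and its own median is given. Taking mitochondrial genes, ribosomal protein genes and the next 20 genes by abundance out of the total lowered the shift to 0.37. In Day 1, 20 CPM is 6.20 UMIs, and 678 of the 2386 higher genes had under 10 UMIs there. Another effect of the minimum is that 1736 of the 2386 higher genes were under 20 CPM in Untreated members and so were tested only through their Day 1 level. Such genes were 2 of 8 tested in the list of spasmolytic polypeptide-expressing metaplasia, 3 of 14 in the wound list, 4 of 21 in the glycosylation list, 3 of 14 gastric transcription factors and 1 of 5 mucosal defence genes. Of the higher genes, 53% were also at least 2-fold higher in the other cells of the library, as were 23.8% of the lower genes on the lower side. Among the selecting genes, Muc6 was 1879 CPM in Day 1 members and 398 CPM in Untreated members, and Agr2 was 2754 CPM in Day 1 and 7079 CPM in Untreated. A4gnt hardly differed, at 274 CPM in Day 1 members and 269 CPM in Untreated members (log2 ratio 0.03, -0.31 to 0.35), while Tff2 was 5423 CPM in Day 1 and 15667 CPM in Untreated. Of the 8 neck genes outside the selection, Aqp5, Spdef, Creb3l1 and Dmbt1 were higher and Tff2 and Creb3l4 lower, with a median of 0.54 in members and 0.80 in other cells.

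Immediate early genes, the transcription factors and regulators that cells switch on within minutes of a stimulus, were 2-fold higher in 12 of 13 tested, with 0 of 13 under 20 CPM in either group and a median log2 ratio of 1.79 in members and 1.06 in other cells. Fos was 2654 CPM in Day 1 members and 767 CPM in Untreated members (log2 ratio 1.79, interval 1.68 to 1.90), against 814 CPM in other Day 1 cells and 282 CPM in other Untreated cells. Egr1 was 1256 CPM in Day 1 and 124 CPM in Untreated (3.33, 3.15 to 3.53), with 17.2% of the Day 1 UMIs in 1 cell. A Fos UMI was present in 75.6% of Day 1 members and 53.1% of Untreated members. These genes also respond to tissue dissociation, which was the same 5 min at 37 °C for all libraries, and its part in the result was not tested.

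Of 10 tested feedback and response genes of ERK signalling, the kinase cascade below EGFR, 8 were under 20 CPM in Untreated members and were tested only through their Day 1 level, so no count or median is read for this list and values are given instead. The 2 genes of the list above 20 CPM in both groups were Myc, at 100 CPM in Day 1 members and 40 CPM in Untreated members, and Phlda1, at 38.7 CPM in Day 1 and 23.2 CPM in Untreated. Spry1, a feedback inhibitor of receptor tyrosine kinases, was 45.2 CPM in Day 1 members (14 UMIs) and 6.63 CPM in Untreated members (log2 ratio 2.60, 1.74 to 3.73). The ETS factors Etv4 and Etv5 were 45.2 and 71.0 CPM in Day 1 members, against 7.52 and 16.4 CPM in Untreated members. Dusp6, a phosphatase that switches ERK off, was 51.7 CPM in Day 1 members and 12.2 CPM in Untreated members, and in all other cells it was 8.98 CPM in Day 1 and 16.5 CPM in Untreated. Neighbouring Day 1 cells were few, with 24 over the chief limit, 61 over the Muc5ac limit and 12 over the cell cycle limit. Their Day 1 levels rest on few UMIs, and likeness to members is not read from them. Dusp6 was 48.5 CPM in Day 1 and 10.7 CPM in Untreated over the chief limit. It was 19.0 CPM in Day 1 and 4.14 CPM in Untreated over the Muc5ac limit, and 12.5 CPM in Day 1 and 11.8 CPM in Untreated over the cell cycle limit. Of 6 tested ERBB receptors and regulators, 2 were under 20 CPM in Untreated members and so could be tested only through Day 1. The other 4 included Errfi1, an inhibitor of EGFR, at 107 CPM in Day 1 members and 25.2 CPM in Untreated members, and Erbb3 at 48.4 CPM in Day 1 and 20.8 CPM in Untreated. Of the EGFR ligands, Hbegf was 51.7 CPM in Day 1 members and 54.4 CPM in Untreated members, and Btc was 22.6 CPM in Day 1, on 7 UMIs, and 9.07 CPM in Untreated.

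SPEM genes were higher in 6 of 8 tested at Day 1, with a median of 1.82 in members and 1.57 in other cells. Clu, a secreted chaperone, was 13784 CPM in Day 1 members and 6256 CPM in Untreated members (1.14, 1.09 to 1.19), and 5128 CPM in other Day 1 cells and 1661 CPM in other Untreated cells. Cd44, a hyaluronan receptor, was 87.2 CPM in Day 1 (57.4 to 127) and 2.65 CPM in Untreated (1.37 to 4.63), and Dmbt1, a mucosal scavenger glycoprotein, 797 CPM in Day 1 and 88.0 CPM in Untreated. The transcription factor Sox9 was 300 CPM in Day 1 members and 75.8 CPM in Untreated members. Wfdc2, also on the list, was 152 CPM in Day 1 members and 148 CPM in Untreated members, while other cells had 240 CPM in Day 1 and 45.9 CPM in Untreated. In mucosal defence, 3 of 5 genes were higher, led in level by Bpifb1, a secreted mucosal protein of the bactericidal/permeability-increasing fold family, at 4145 CPM in Day 1 members and 798 CPM in Untreated members. Other cells had 254 CPM in Day 1 and 206 CPM in Untreated for Bpifb1, and its Day 1 level was 4.02 log2 units higher in members than in all other cells. Neighbouring cells of Day 1 also held it, at 9240 CPM over the chief limit (24 cells), 2018 CPM over the Muc5ac limit (61 cells) and 2505 CPM over the cycle limit (12 cells).

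The wound and injury list behaved differently in members and in the rest of the epithelium. In members, 7 of 14 tested were higher at Day 1 and 1 lower, with a median of 1.03, while the median in other cells was 2.22. The calcium-binding protein gene S100a6 was 2947 CPM in Day 1 members and 105 CPM in Untreated members, and 13747 CPM in other Day 1 cells and 549 CPM in other Untreated cells. Other Day 1 cells lay on both sides of members, on few cells each. S100a6 was 1144 CPM over the chief limit and 652 CPM in parietal cells, but 5025 CPM over the Muc5ac limit and 6676 CPM over the cycle limit. Low wound gene levels were thus not particular to members. Barcodes with under 50 UMIs held 12283 CPM of S100a6 in Day 1 and 695 CPM in Untreated. Within Day 1, 18 of 20 measured wound genes were at least 2-fold lower in members than in other cells, where 8.86% of all genes were. The same count was 5 of 13 in Untreated (6.31% of all genes), 3 of 12 in Day 3 with AREG (8.70%) and 5 of 12 in Day 3 (10.4%). With free RNA subtracted the Day 1 median in members was 0.06. It was 0.76 without abundant genes, 1.36 for means of per-cell CPM and 1.69 when selected on Muc6 and Gkn3 alone.

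Chief genes outside the selection were lower in 5 of 8 tested at Day 1, with a median of -1.63 in members and -3.87 in other cells. Clps, which encodes colipase, was 2786 CPM in Day 1 members and 10299 CPM in Untreated members, and Pla2g1b, a secreted phospholipase, 3335 CPM in Day 1 and 8587 CPM in Untreated. Single cells held 42.1% and 41.8% of these Day 1 UMIs, and the Day 1 Clps level was no higher than the 2990 CPM in barcodes with under 50 UMIs. Pgc lay within 2-fold (log2 ratio -0.64, -0.65 to -0.62), against -1.96 in other cells. The intrinsic factor gene Cblif, on which members were selected as low, was 894 CPM in Day 1 members and 437 CPM in Untreated members, while other cells had 98.1 CPM in Day 1 and 1873 CPM in Untreated. With free RNA subtracted, 2 of 6 chief genes were higher, 1 was lower and the median was -0.52. The median was -1.92 without abundant genes and -2.57 for means of per-cell CPM. Selected on Muc6 and Gkn3 alone it was -3.37, with 7 of 8 lower.

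Folding genes of the endoplasmic reticulum showed no shift in median, and unfolded protein response and glycosylation genes had medians near the all-gene 0.65. Under 20 CPM in Untreated members were 1 of 28 folding, 4 of 17 unfolded protein response and 4 of 21 glycosylation genes tested. Over all genes tested this was 35.0%, so the folding median is not set against 0.65. Of 28 genes of endoplasmic reticulum translocation and folding, 3 were higher and 2 lower (median 0.00, other cells 0.19). Of 17 unfolded protein response genes, 4 were higher and 1 lower (0.70, other cells 0.20). Mucin glycosylation genes were higher in 9 of 21 and lower in none (0.79, other cells 1.10), where 39.6% of all genes were higher. C1galt1, which builds the core of mucin sugar chains, was 181 CPM in Day 1 members and 38.7 CPM in Untreated members, and the transporter gene Slc35a3 was 194 CPM in Day 1 and 71.4 CPM in Untreated. Gastric transcription factors were higher in 9 of 14, with a median of 1.11 in members and 1.04 in other cells. With abundant genes left out, 5 of 14 were higher, where 1889 of all 6020 genes were. Foxa1, a forkhead factor, was 245 CPM in Day 1 members and 62.8 CPM in Untreated members, and Gata4 and Gata6, whose core is marked in the promoters above, were 145 and 123 CPM in Day 1 members, against 71.9 and 45.3 CPM in Untreated members. Parietal cells had 232 and 136 CPM of Gata4 and Gata6 in Day 1, against 120 and 54.8 CPM in Untreated.

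The largest Day 1 ratios by the naming rule were those of Cldn2, Col18a1, C2cd4b, S100a6, Plekhs1, Cd44, Pdk4, Sbno2, Atxn2l and Rnase4. Cldn2, a pore-forming claudin, was 74.2 CPM in Day 1 members and 0.221 CPM in Untreated members, on 23 UMIs in Day 1 and 1 UMI in Untreated. In all other cells Cldn2 was 2.84 CPM in Day 1 and 0.0525 CPM in Untreated. The few neighbouring Day 1 cells had 29.1 CPM over the chief limit (24 cells), 28.5 CPM over the Muc5ac limit (61 cells) and 125 CPM over the cycle limit (12 cells). C2cd4b was 294 CPM in Day 1 members and 9.51 CPM in Untreated members, against 20.6 CPM in other Day 1 cells and 10.5 CPM in other Untreated cells. The 24 Day 1 cells over the chief limit had 213 CPM. Among the lowest, beside the hormone and selecting genes Sst, Ghrl, Chga, Chia1, Atp4a and Atp4b, were the galectin gene Lgals2, at 320 CPM in Day 1 and 2800 CPM in Untreated, and the disulfide isomerase gene Pdia2, at 67.8 CPM in Day 1 and 528 CPM in Untreated, whose other cells had 39.1 CPM in Day 1 and 630 CPM in Untreated. The muscarinic receptor gene Chrm3 was 74.2 CPM in Day 1 members and 7.74 CPM in Untreated members, against 11.2 CPM in other Day 1 cells and 8.30 CPM in other Untreated cells, and the chloride importer gene Slc12a2 was 333 CPM in Day 1 and 56.8 CPM in Untreated.

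**Figure D3:**
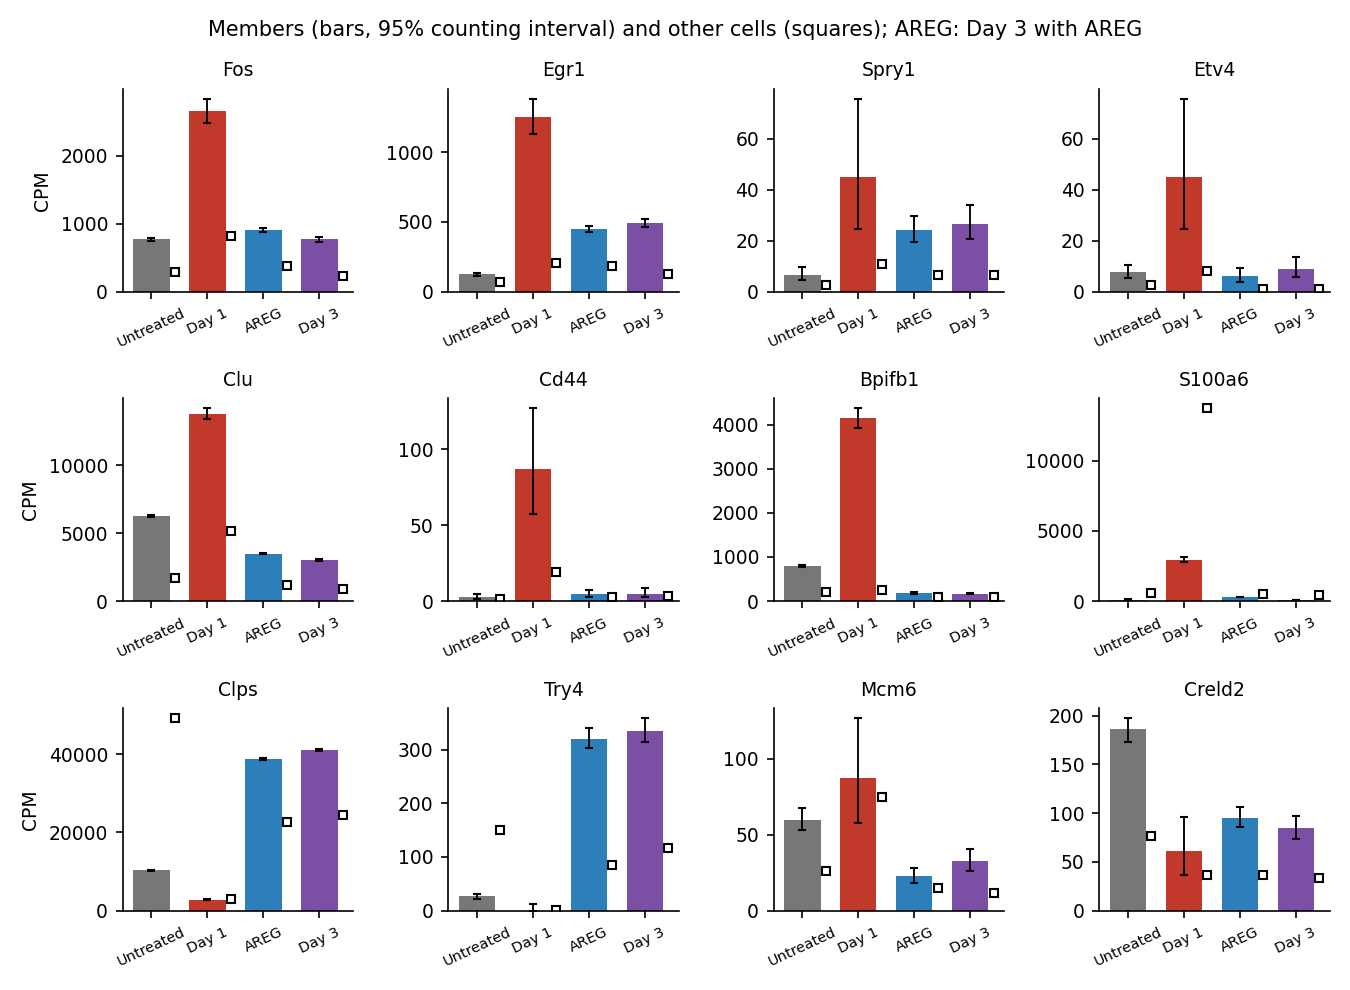
Levels of 12 genes in members, as bars in CPM with exact 95% Poisson intervals, and in other cells of the same library, as open squares. Fos, Egr1, Etv4, Cd44, Bpifb1 and Clu were highest in Day 1 members, Clps and Try4 in members were higher in both libraries of day 3 than in Untreated or Day 1, though Clps was highest of all in other Untreated cells at 49336 CPM, and S100a6 at Day 1 was 2947 CPM in members and 13747 CPM in other cells.

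At day 3 without AREG, members had more of 3 digestive enzyme genes than Untreated members. Of 5378 genes tested, 25.1% were at least 2-fold higher in Day 3 and 3.92% at least 2-fold lower, with a median log2 ratio of 0.24. Of the 1351 higher genes, 978 were under 20 CPM in Untreated members and so tested only through Day 3. Of the higher genes, 57.9% were also higher in other cells, and of the lower genes 28.9% were also lower. Muc6 was 2483 CPM in Day 3 members and 398 CPM in Untreated members, and Gkn3 was 4068 CPM in Day 3 and 815 CPM in Untreated. Agr2 was 5529 CPM in Day 3 and 7079 CPM in Untreated. These levels depended on the selection: selected on Muc6 and Gkn3 alone, the median log2 ratio of these 3 genes was 0.31, against 2.32 here. A4gnt, which the selection did not use, was 177 CPM in Day 3 and 269 CPM in Untreated (log2 ratio -0.60, -0.77 to -0.45). Tff2 was 7821 CPM in Day 3 members and 15667 CPM in Untreated members.

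Chief genes outside the selection split. Clps was 41157 CPM in Day 3 members and 10299 CPM in Untreated members (2.0, 1.98 to 2.01), whereas in other cells it was lower at Day 3, at 24479 CPM in Day 3 and 49336 CPM in Untreated. Barcodes with under 50 UMIs held 20532 CPM of Clps in Day 3 and 71268 CPM in Untreated, so Untreated members lay far below their free RNA and Day 3 members above theirs. The median member had 119 Clps UMIs per 10000 in Day 3 and 57.1 in Untreated. The trypsin gene Try4 was 336 CPM in Day 3 and 26.5 CPM in Untreated (3.61, 3.39 to 3.95), against 117 CPM in other Day 3 cells and 151 CPM in other Untreated cells, and the lipase gene Pnliprp2 was 631 CPM in Day 3 and 172 CPM in Untreated. In all, 3 of 8 were higher, 1 was lower (Pga5) and the median was 0.53 in members and -0.92 in other cells. Cells over the chief limit had 147523 CPM of Clps in Day 3 and 118767 CPM in Untreated. Clps over the Muc5ac limit was 19882 CPM in Day 3 and 3066 CPM in Untreated. It was 37238 against 3941 CPM over the cycle limit, and 9181 against 3518 CPM in parietal cells. Try4 was 848 against 368 CPM over the chief limit, 279 against 5.27 CPM over the Muc5ac limit and 276 against 25.4 CPM over the cycle limit. The higher Day 3 levels were thus not particular to members.

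Of 13 replication genes tested, 7 were under 20 CPM in Day 3 members and so tested only through Untreated. At least 2-fold lower were 6 of 13, with 4 of the 6 among those 7. The list median was -0.99 in members and -0.77 in other cells. The minimum lowers the member median, and it is not read further. Mcm7 and Pcna, above 20 CPM in both groups, were 22.3 and 54.2 CPM in Day 3 members, against 48.2 and 119 CPM in Untreated members. Among the genes under 20 CPM in Day 3, the helicase genes Mcm3 and Mcm5 were 13.4 and 17.0 CPM there, against 48.0 and 36.3 CPM in Untreated members. The microtubule regulator gene Stmn1, of the isthmus and progenitor list, was 32.0 CPM in Day 3 and 118 CPM in Untreated. Dividing cells had been removed by the selection in both libraries, and no replication gene was among the genes selected on. When members were selected on Muc6 and Gkn3 alone, 0 of 7 tested were lower and the median was -0.21. Of the Untreated members, 39.5% held Agr2 only, and these had 66.2 CPM of Mcm6 against 55.9 CPM in those with Muc6 or Gkn3.

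The unfolded protein response list had 6 of 17 higher, 4 of them under 20 CPM in Untreated members, and 1 lower at Day 3 (median 0.47, other cells 0.28). Syvn1 and Edem1, which take part in the disposal of misfolded proteins, were 47.8 and 40.1 CPM in Day 3 members, against 18.4 and 17.7 CPM in Untreated members. The chaperone gene Hspa5, a main readout of this response, was 508 CPM in Day 3 and 524 CPM in Untreated, and Creld2 was lower, at 85.0 CPM in Day 3 and 186 CPM in Untreated. SPEM genes had 4 of 7 higher, 1 of them under 20 CPM in Untreated members, and 2 lower (1.35, other cells 0.24). Sox9, Dmbt1 and Aqp5 were 223, 329 and 56.3 CPM in Day 3 members, against 75.8, 88.0 and 20.1 CPM in Untreated members, while Clu was 3016 CPM in Day 3 and 6256 CPM in Untreated. Immediate early genes had 3 of 13 higher (0.37). Fos was 768 CPM in Day 3 members and 767 CPM in Untreated members, while Egr1 was 493 CPM in Day 3 and 124 CPM in Untreated. Errfi1 was 107 CPM in Day 3 and 25.2 CPM in Untreated.

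The naming rule listed Try4, Ghrl, Rnf225, Gxylt1, Sltm, Taco1, Ell2, Furin, Muc6 and Ccnb1ip1 as highest at Day 3. Sltm was 2500 CPM in Day 3 members and 220 CPM in Untreated members, and other cells differed likewise, at 1156 CPM in Day 3 and 147 CPM in Untreated. Furin, a protease that matures secreted precursors, was 287 CPM in Day 3 members and 42.5 CPM in Untreated members and 229 CPM in other Day 3 cells and 153 CPM in other Untreated cells. Pga5, Cym, Apoa1, Tuba1b, Bpifb1, Sprr2a1, Sprr2a2, Mucl3 and Id2 were among the lowest. Id2, an inhibitor of bHLH transcription factors, was 45.3 CPM in Day 3 members and 199 CPM in Untreated members and 173 CPM in other Day 3 cells and 166 CPM in other Untreated cells, and Id1 was 66.4 CPM in Day 3 and 288 CPM in Untreated. Neighbouring cells had less Id2 at Day 3 as well, with 24.9 CPM in Day 3 and 68.9 CPM in Untreated over the chief limit, 65.1 CPM in Day 3 and 124 CPM in Untreated over the Muc5ac limit, and 46.1 CPM in Day 3 and 279 CPM in Untreated over the cycle limit. A single cell held 82.3% of the Untreated Cym UMIs, and Sprr2a1 and Sprr2a2 are near-identical copies whose reads may be split, so these are given by name only.

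Day 3 members with AREG were close to Day 3 members without it in almost every gene. Of 5286 genes tested, 0.151% (8 genes) were at least 2-fold higher with AREG and 0.473% (25 genes) at least 2-fold lower, with a median log2 ratio of -0.02. Of the 8 higher genes, 4 were under 20 CPM without AREG, and of the 25 lower genes, 16 were under 20 CPM with AREG. Such genes were tested only through the group where they were high. Selected on Muc6 and Gkn3 alone, members had 38 higher and 70 lower genes. Among the selecting genes, in members Muc6 was 1048 CPM with AREG and 2483 CPM without (-1.24, -1.30 to -1.19), and Gkn3 was 1841 CPM with AREG and 4068 CPM without. In other cells Muc6 was 46.7 CPM with AREG and 87.7 CPM without, and Gkn3 169 CPM with AREG and 378 CPM without, so both stood lower with AREG outside the members too. Agr2 was 4501 CPM with AREG and 5529 CPM without, and A4gnt 139 CPM with AREG and 177 CPM without (-0.34, -0.53 to -0.16). Muc6 was present in 34.8% of thinned members with AREG (32.1 to 37.5%) and 52.2% without (48.4 to 56.1%). Selected on Muc6 and Gkn3 alone, 0 of the 3 selecting genes passed 2-fold and the Muc6 log2 ratio was -0.65.

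No gene of the ERBB, immediate early, replication, glycosylation, SPEM or unfolded protein response lists passed 2-fold in either direction with AREG. Their medians lay between -0.12 and 0.16. Errfi1 was 72.7 CPM with AREG and 107 CPM without, Hbegf 53.5 CPM with AREG and 69.6 CPM without, and Egr1 451 CPM with AREG and 493 CPM without. Of 4 ERK response genes tested, Etv5 was lower, at 16.1 CPM with AREG and 34.0 CPM without (-1.03, -1.59 to -0.58), and 3.71 CPM with AREG and 4.52 CPM without in other cells. Etv5 was under 20 CPM with AREG and so tested only through its level without AREG. When members were selected on Muc6 and Gkn3 alone, 0 of 4 ERK response genes tested were lower. Clps was 38697 CPM with AREG and 41157 CPM without, and Pgc 149816 CPM with AREG and 191921 CPM without.

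S100a6 was the wound gene that passed 2-fold, at 272 CPM with AREG and 78.1 CPM without (1.79, 1.57 to 2.03), and 499 CPM with AREG and 420 CPM without in other cells, with 10.3% of the AREG UMIs in 1 cell. The glycolytic gene Gapdh was 155 CPM with AREG and 68.4 CPM without, and the thioredoxin-binding protein gene Txnip, short of 2-fold, 314 CPM with AREG and 161 CPM without. On the lower side, Nfib, a nuclear factor I gene, was 148 CPM with AREG and 384 CPM without (-1.37, -1.53 to -1.22), against 107 CPM with AREG and 152 CPM without in other cells. The heat shock genes Hspa1a and Hspa1b were 75.7 and 90.7 CPM with AREG, and 175 and 237 CPM without. These 2 genes are near-identical copies, and their split is uncertain. The histone gene H4c3 was 29.7 CPM with AREG and 67.6 CPM without. Rnf225 was 16.4 CPM with AREG and 57.5 CPM without, and so was tested only through its level without AREG. Taco1 was 34.1 CPM with AREG and 104 CPM without in members, and 50.8 CPM with AREG and 102 CPM without in other cells. Cul3 and Tafa2, which had the highest and the lowest ratio by the naming rule, differed likewise in barcodes that hold mostly free RNA. Cul3 was 196 CPM with AREG and 42.9 CPM without in members, and 1479 CPM with AREG and 46.3 CPM without in barcodes with under 50 UMIs. Tafa2 was 1.94 CPM with AREG and 120 CPM without in members, and 4.93 CPM with AREG and 4616 CPM without in those barcodes.

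**Figure D4:**
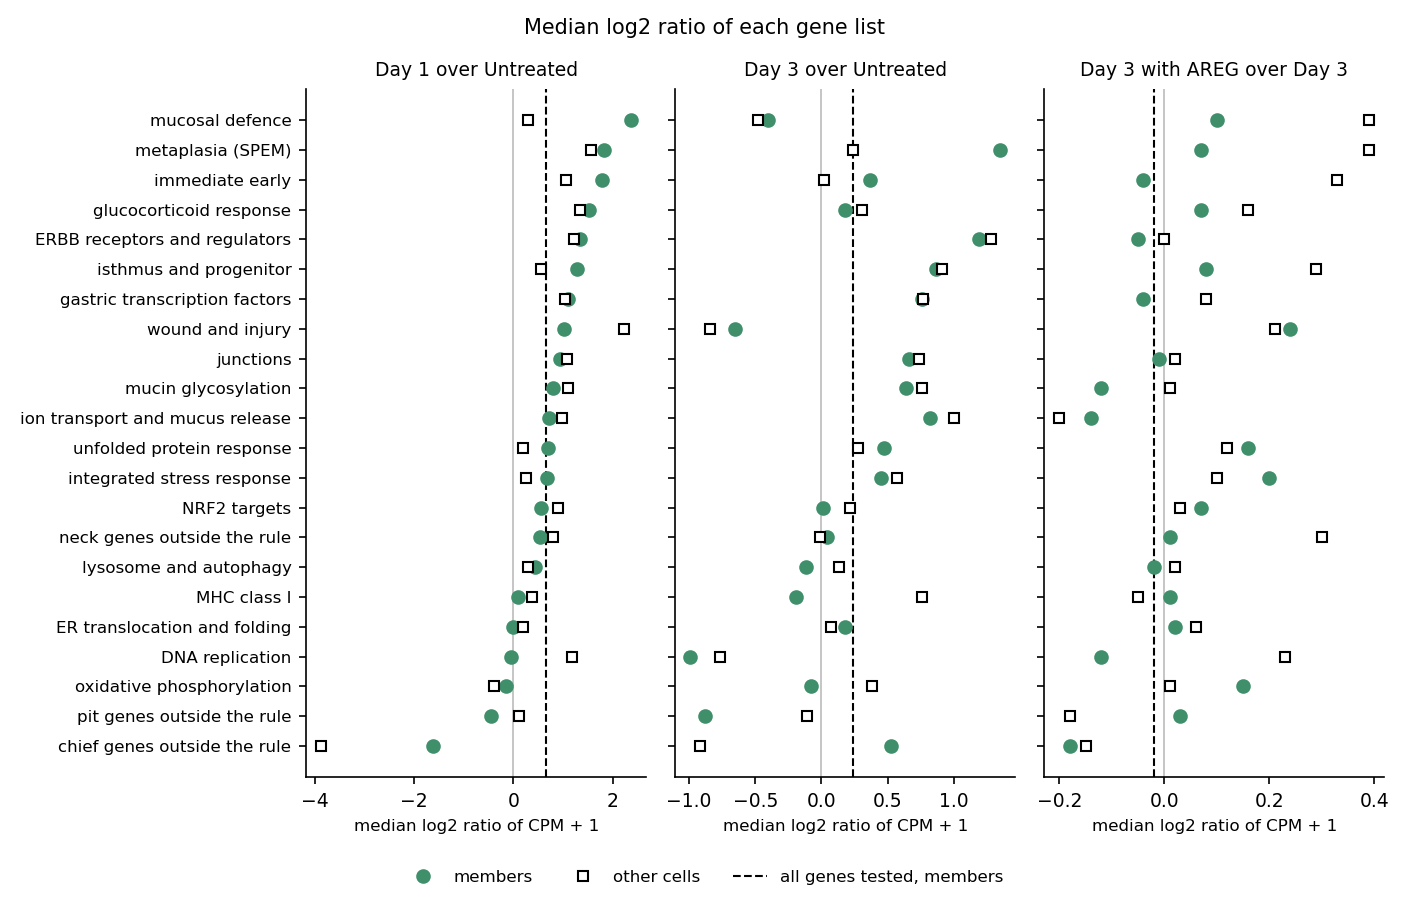
Median log2 ratio of CPM + 1 for 22 gene lists with at least 5 genes tested in each comparison, in members (filled circles) and other cells (open squares), with the median of all genes tested in members as a dashed line; the 3 panels have different scales. At Day 1 the mucosal defence, SPEM and immediate early lists stood at 2.37, 1.82 and 1.79 and the chief list at -1.63, and with AREG every list in members lay between -0.18 and 0.24. At Day 3 replication stood at -0.99, with 7 of its 13 genes tested only through their Untreated level.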

How the data were processed

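Single-cell RNA counts of 4 libraries were analysed, 1 per group. The authors deposited raw UMI counts, 1 matrix of genes by barcodes for each library, without normalization and with all barcodes kept. Capture was by PIPseq T20, a 3′ method, with 25000 cells loaded per library per the labels' protocols. Per the submitters' processing notes, mm39 (GRCm39) was the genome; which aligner, counter and annotation served is not given in the sources used here. Each deposited table holds 32227 genes, and for 27 repeated symbols the first row was used. Library totals were 98893436 UMIs in Untreated, 56007532 in Day 1, 81286332 in Day 3 with AREG and 62591649 in Day 3.

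Members were selected as the text states. The selection and the gene lists were chosen with earlier results of these data known. Member counts were summed per library and scaled to 1000000 (CPM). Log2 ratios of CPM + 1 were taken for genes with at least 20 CPM in either group and 10 UMIs over both, and at least 2-fold was called higher or lower. With 1 library per group no test was made. Intervals were exact Poisson for levels, exact Clopper-Pearson for shares, Katz log intervals for ratios of shares and exact conditional binomial for ratios of genes. The limit at a count of 0 is 3 counts. The named genes were the 10 highest and 10 lowest ratios per comparison among genes with at least 50 CPM, and the 15 highest medians of members over other cells among genes with at least 100 CPM. One gene that this rule gives is not reported here. Genes named from the lists illustrate the counts. Free RNA was measured in barcodes with under 50 UMIs. The parietal genes planned for the free RNA fraction gave void values, so pit genes were used. This counts any pit transcripts of the members' own as free RNA. Thinning drew 500 UMIs per cell, and parietal cells had at least 200 Atp4a and Atp4b UMIs per 10000. No doublet caller was run. Reads of near-identical genes (Hspa1a and Hspa1b, the Sprr2a copies) may be split. Scripts were tested on simulated data. Python 3.11.15, numpy 2.4.6, scipy 1.17.1, pandas 2.3.3 and matplotlib 3.10.9 were used.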

Additional observations from a re-analysis of the deposited data

How the results depend on the processing

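With 1 library per group, there is no replicate to leave out. No paired analysis was possible because each group is 1 library and the groups share no replicate numbers. The parietal-gene free RNA subtraction was not run as planned, and thinning, leaving out the deepest member and the pit-gene subtraction were chosen after seeing the data. Depth limits Day 1 most, with 86 members.

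The log2 ratio of member shares moved to -2.70 for Day 1 over Untreated and to -0.06 for Day 3 with AREG over Day 3 at a neck sum of 40 per 10000. On Muc6 and Gkn3 alone, the ratios were -1.24 for Day 1 over Untreated, 1.38 for Day 3 over Untreated and -0.54 for Day 3 with AREG over Day 3. With no Muc5ac limit they were -1.96 for Day 1 over Untreated and 0.33 for Day 3 with AREG over Day 3, and after thinning the AREG ratio was -0.12. The AREG ratio and the Day 3 ratio thus changed sign with the selection.

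Counts of genes past 2-fold moved with every one of the following settings. On Muc6 and Gkn3 alone, 684 were lower at Day 1, and 38 were higher and 70 lower with AREG. A pseudocount of 10 CPM gave 196 lower at Day 1, 687 higher and 98 lower at Day 3, and 13 lower with AREG. With no CPM filter, 4016 were higher and 1417 lower at Day 1, 3225 higher and 488 lower at Day 3, and 126 higher and 409 lower with AREG. Without abundant genes in the total, 602 were lower at Day 1 and 327 at Day 3. Means of per-cell CPM gave 43 higher and 118 lower with AREG, and free RNA subtraction 41 lower with AREG. Of 60 named gene values under 8 alternatives, 375 results stayed, 100 moved and 5 turned round. Those 5 were Ghrl at -2.22 for Day 3 over Untreated and 1.07 for AREG over Day 3 on Muc6 and Gkn3 alone, and, with free RNA subtracted, Apoa1 at 2.58 for Day 3 over Untreated, Cul3 at -0.41 and Tafa2 at 1.26 for AREG over Day 3. The cause was not tested, except that no CPM filter adds genes by construction.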

Other observations

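Nuclear-encoded genes of oxidative phosphorylation, the mitochondrial chain that makes ATP, were at least 2-fold lower in members than in other cells in 1 of 16 in Untreated (6.31% of all genes), 1 of 16 in Day 1 (8.86%), 9 of 16 in Day 3 with AREG (8.70%) and 10 of 16 in Day 3 (10.4%). The counts of Untreated and Day 1 are near those shares. Ndufa4, a subunit of the chain, was 598 CPM in Untreated members and 1000 CPM in other Untreated cells, and 657 CPM in Day 3 members and 1258 CPM in other Day 3 cells. The other cells include parietal cells, with 2425 CPM of Ndufa4 in Day 3. Neighbouring Day 3 cells lay on both sides of members, at 380 CPM over the chief limit, 750 CPM over the Muc5ac limit and 833 CPM over the cycle limit. The low counts are thus relative to all other cells together. Within members no gene of the list passed 2-fold in Day 3 over Untreated, with a median log2 ratio of -0.08 in members and 0.38 in other cells.

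Genes of the isthmus and progenitor list were higher in 5 of 8 in Day 1 members, 2 of them under 20 CPM in Untreated members (median log2 ratio 1.29, other cells 0.56), where 39.6% of all genes were higher and the median was 0.65, and higher in 3 and lower in 2 of 7 in Day 3 members (0.87, other cells 0.91), where 25.1% of all genes were higher, 3.92% lower and the median was 0.24. Sox4, a transcription factor of immature epithelial cells, was 24.5 CPM in Untreated members, 67.8 CPM in Day 1, 67.7 CPM in Day 3 with AREG and 76.5 CPM in Day 3, while other cells had 12.2 CPM in Untreated, 16.6 in Day 1, 25.2 in Day 3 with AREG and 22.6 in Day 3. In Day 1 and Untreated, Sox4 was 126 and 25.2 CPM over the chief limit and 61.3 and 27.7 CPM in parietal cells. Asns, the asparagine synthetase gene of the integrated stress response, was 355 CPM in Day 1 members and 122 CPM in Untreated members, while other cells had 95.2 CPM in Day 1 and 85.2 CPM in Untreated. The few neighbouring cells also had more Asns in Day 1 than in Untreated. It was 533 against 140 CPM over the chief limit, 187 against 87.3 CPM over the Muc5ac limit and 488 against 159 CPM over the cycle limit. Reg3g, an antimicrobial lectin gene, was 32.3 CPM in Day 1 members (10 UMIs, 80.0% of them in 1 cell) and 0.221 CPM in Untreated members, against 0.896 CPM in other Day 1 cells and 0.613 CPM in other Untreated cells. Pigr, the receptor that carries IgA into the lumen, was 33.6 CPM in Day 3 members and 9.07 CPM in Untreated members, against 6.56 CPM in other Day 3 cells and 4.71 CPM in other Untreated cells. In Day 3 and Untreated, Pigr was 24.9 and 19.4 CPM over the chief limit, 15.8 and 0.752 CPM over the Muc5ac limit, and 51.6 and 6.51 CPM over the cycle limit.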
